A study of Mus musculus with 6 samples.

Results

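The genes described here are 37 mouse genes of glycolysis and of the response to low oxygen, measured in RNA of collecting duct cells. They comprise 17 glycolytic enzymes, 2 glucose transporters, 2 enzymes that set glycolytic flux, 4 pyruvate dehydrogenase kinases, 4 subunits and hydroxylases of the hypoxia-inducible factor (HIF), and 8 other genes induced by HIF. For each gene, the counts of all transcript identifiers whose mm10 exons matched that gene on the same strand by at least 50% of exonic bases were summed. Of the 37 genes, 36 had at least 1 read and 29 had enough reads to be tested, among 10519 tested genes of 24825 with an identifier. The 29 passed a filter on low counts that looks at both diets together, and the other 8 are accounted for at the end of each group.

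The mice were male and of the inbred strain C57BL/6J, with no transgene or mutation named in the labels, and the cells came from their kidneys. Mice in the low-NaCl group ate a diet of 0.01 to 0.02% sodium, mice in the high-NaCl group ate a diet of 2.4% sodium, and both diets lasted 5 days. Each diet has 3 libraries, and no group on an ordinary diet is among them. The labels state neither the animals' age nor the way of isolating the cells, and do not say if libraries are separate animals. The p-values therefore cover only library-to-library spread, which may be technical. The comparison asks which transcripts differ between collecting duct cells of mice short of dietary salt and of mice loaded with it.

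Glycolysis splits glucose into pyruvate in the cytosol and yields ATP without oxygen. Pyruvate then either becomes lactate, through lactate dehydrogenase, or enters mitochondria and is oxidised by pyruvate dehydrogenase, which the PDH kinases switch off. HIF is a pair of proteins, an oxygen-labile alpha subunit (HIF-1 alpha from Hif1a, HIF-2 alpha from Epas1) and a stable beta subunit. In the presence of oxygen the prolyl hydroxylases, among them the products of Egln1 and Egln3, mark the alpha subunit for destruction. When oxygen is short, HIF binds a short DNA core, ACGTG, and raises transcription of glucose transporters, most glycolytic enzymes, Pdk1, Vegfa and the hydroxylases themselves. The collecting duct lies partly in the renal medulla, where oxygen tension is low and glycolysis supplies a larger share of energy than in the cortex.

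The HIF core, ACGTG or its reverse complement CACGT, was searched in the 250 bases upstream of RefSeq start sites in build GRCm38.p6. Of the 37 genes, 34 had a promoter entry (Epas1, Slc2a3 and Bnip3l had none), and 21 of these 34, or 61.8%, held the core in at least 1 promoter. Among all 27025 genes with a promoter, 4998, or 18.5%, held it. Counted by promoter, 25 of the 51 promoters of these genes held it (49%), against 5444 of 32851 overall (16.6%). The list was built from glycolytic enzymes and known HIF targets, so its share is a description and not a test. Among the 25 are promoters of Hif1a, Ldha, Pgam1 and Vegfa whose start could not be matched to a GENCODE transcript. The following 5 upstream sequences are shown because the core is present and every exonic base of the gene could be counted, so that promoter and RNA values can be read side by side. They also have at most 30 bases inside the annotated gene, and their start sites could be matched to a GENCODE transcript on the same strand. Each sequence is written 5′ to 3′ on the strand of its gene and ends at the base before the start site, with the core in capitals.
Hk2: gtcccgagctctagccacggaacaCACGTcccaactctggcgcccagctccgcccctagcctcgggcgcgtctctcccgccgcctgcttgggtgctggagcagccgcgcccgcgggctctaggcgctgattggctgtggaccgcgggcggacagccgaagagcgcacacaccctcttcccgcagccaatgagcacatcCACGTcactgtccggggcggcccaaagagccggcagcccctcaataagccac
Pgk1: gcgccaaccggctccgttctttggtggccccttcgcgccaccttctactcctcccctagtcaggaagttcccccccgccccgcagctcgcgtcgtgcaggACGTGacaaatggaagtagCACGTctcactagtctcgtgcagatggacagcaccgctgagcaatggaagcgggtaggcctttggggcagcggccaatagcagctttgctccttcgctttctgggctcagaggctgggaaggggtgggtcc
Pdk2: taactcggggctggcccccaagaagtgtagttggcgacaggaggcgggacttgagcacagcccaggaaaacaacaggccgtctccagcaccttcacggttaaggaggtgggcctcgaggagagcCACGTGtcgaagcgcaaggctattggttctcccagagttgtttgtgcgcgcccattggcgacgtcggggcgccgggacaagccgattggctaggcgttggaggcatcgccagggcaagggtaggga
Egln3: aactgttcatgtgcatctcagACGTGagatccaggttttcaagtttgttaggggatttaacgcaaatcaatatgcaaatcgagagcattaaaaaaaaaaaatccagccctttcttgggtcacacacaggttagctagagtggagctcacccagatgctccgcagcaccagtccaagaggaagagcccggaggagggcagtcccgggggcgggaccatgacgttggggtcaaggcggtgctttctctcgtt
Bnip3: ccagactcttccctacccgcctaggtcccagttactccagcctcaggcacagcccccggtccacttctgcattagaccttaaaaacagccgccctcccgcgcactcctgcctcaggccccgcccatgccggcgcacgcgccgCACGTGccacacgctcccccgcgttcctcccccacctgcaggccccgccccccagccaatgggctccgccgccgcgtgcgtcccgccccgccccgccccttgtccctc
They lie at chr6:82774455-82774704 (Hk2, minus strand), chrX:106186850-106187099 (Pgk1, plus), chr11:95041372-95041621 (Pdk2, minus), chr12:54203875-54204124 (Egln3, minus) and chr7:138909507-138909756 (Bnip3, minus). In Pdk2 and Bnip3 the core stands as CACGTG, which reads the same on both strands and is also the E-box bound by MYC and USF proteins. It starts 126 bases upstream in Pdk2 and 108 bases upstream in Bnip3. Hk2 held the core at 226 and 52 bases upstream, Pgk1 at 150 and 131 and Egln3 at 229. The fully countable genes Slc2a1, Egln1 and Pdk3 held the core 36, 68 and 53 bases upstream, but these windows reach 34, 70 and 51 bases into the annotated gene and are not printed. Pgam1 held it 114 bases upstream of a RefSeq start that lies before the GENCODE transcript, so its strand could not be checked that way. Ankrd37, not fully countable, held it at 241 and 6 bases upstream. A match to these letters is a description of the sequence and does not show that HIF bound there.

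Counted reads per library numbered 41701319, 40334731 and 40346734 on low NaCl, and 42021276, 46861531 and 40101899 on high NaCl. Mitochondrial transcripts took 21.8, 20.5 and 21.0% of reads in the low-NaCl libraries and 29.9, 21.9 and 28.7% in the high-NaCl libraries. By sequencer lane number, library 1 of both diets shared a lane, low-NaCl libraries 2 and 3 another and high-NaCl libraries 2 and 3 a further one. Whether an equal lane number means the same run was not checked. Beyond the first lane, lane and diet cannot be told apart. Summed markers of 2 collecting duct cell types differed between the diets. The summed level of 12 principal cell markers was 4815 to 6603 CPM (reads per 1e6 counted) on low NaCl and 10019 to 12511 CPM on high NaCl, and that of 14 intercalated cell markers 4475 to 7928 CPM on low NaCl and 3541 to 4443 CPM on high NaCl. Among tested markers, 3 of 10 for principal cells were called lower and 8 of 13 for intercalated cells higher (adjusted p under 0.05, edgeR). Over all tested genes 1.70% were called in each direction. Of the 10, 8 were lower on low NaCl. Aqp2, the most abundant, averaged 2870 CPM on low NaCl and 6962 CPM on high NaCl. The other 2 were higher, Scnn1a at 1900 and 1288 CPM without overlap and Kcnj1 at 26.7 and 26.2 CPM. Of the 13, 12 were higher, while Rhcg, the most abundant, averaged 1731 and 1900 CPM with overlap. Proximal tubule markers summed to 1735 to 3468 CPM on low NaCl and 972 to 2205 CPM on high NaCl, and 2 of the 11 were at 0. Nearly all of that sum was Aqp1, a water channel also found in thin limbs and endothelium, and the other 10 summed to 21.2 to 38.6 CPM on low NaCl and 32.6 to 36.97 CPM on high NaCl. Thick limb and distal convoluted tubule markers summed to 95.3 to 108 CPM on low NaCl and 47.4 to 67.5 CPM on high NaCl. Of 4 tested, 1 was called higher on low NaCl, Slc12a1, at a log2 fold change of 0.92 (adjusted p = 0.016, edgeR). Endothelial, immune, stromal, podocyte and red cell markers summed to 10.8 to 48.1 CPM on low NaCl and 22.5 to 47.0 CPM on high NaCl, and 6 of these 17 were at 0. The part of cell makeup, mitochondrial share and lane in the values that follow was not tested beyond the alternatives named beside them.

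How well a gene could be counted differed widely between these genes. The deposited counts are per transcript identifier, and by the defaults of the counting program a read in an exon of several identifiers is not counted. Exonic bases that lie in exactly 1 identifier are therefore called countable here, as a percentage of all exonic bases of the gene. It was under 50% in 17 of the 37 genes, of which 10 were tested, and at least 50% in 20, of which 19 were tested. A second limit is sequence shared with other genes: of all 50-base windows in the protein-coding transcripts of Pgk1, 68% also occur in transcripts of other genes, as do 58.4% for Gapdh, 49.5% for Eno1 and 41.5% for Pgam1. For Epas1, Pdk2, Pdk3, Egln1, Egln3, Slc2a1, Hk2 and Pfkp this share was 0. Gapdh lies at only 5.48 to 7.48 CPM over the 6 libraries, with transcripts of 218 other genes holding parts of its sequence. Whether reads that map to several places were lost was not tested, so levels of such genes may be incomplete.

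**Figure D1:**
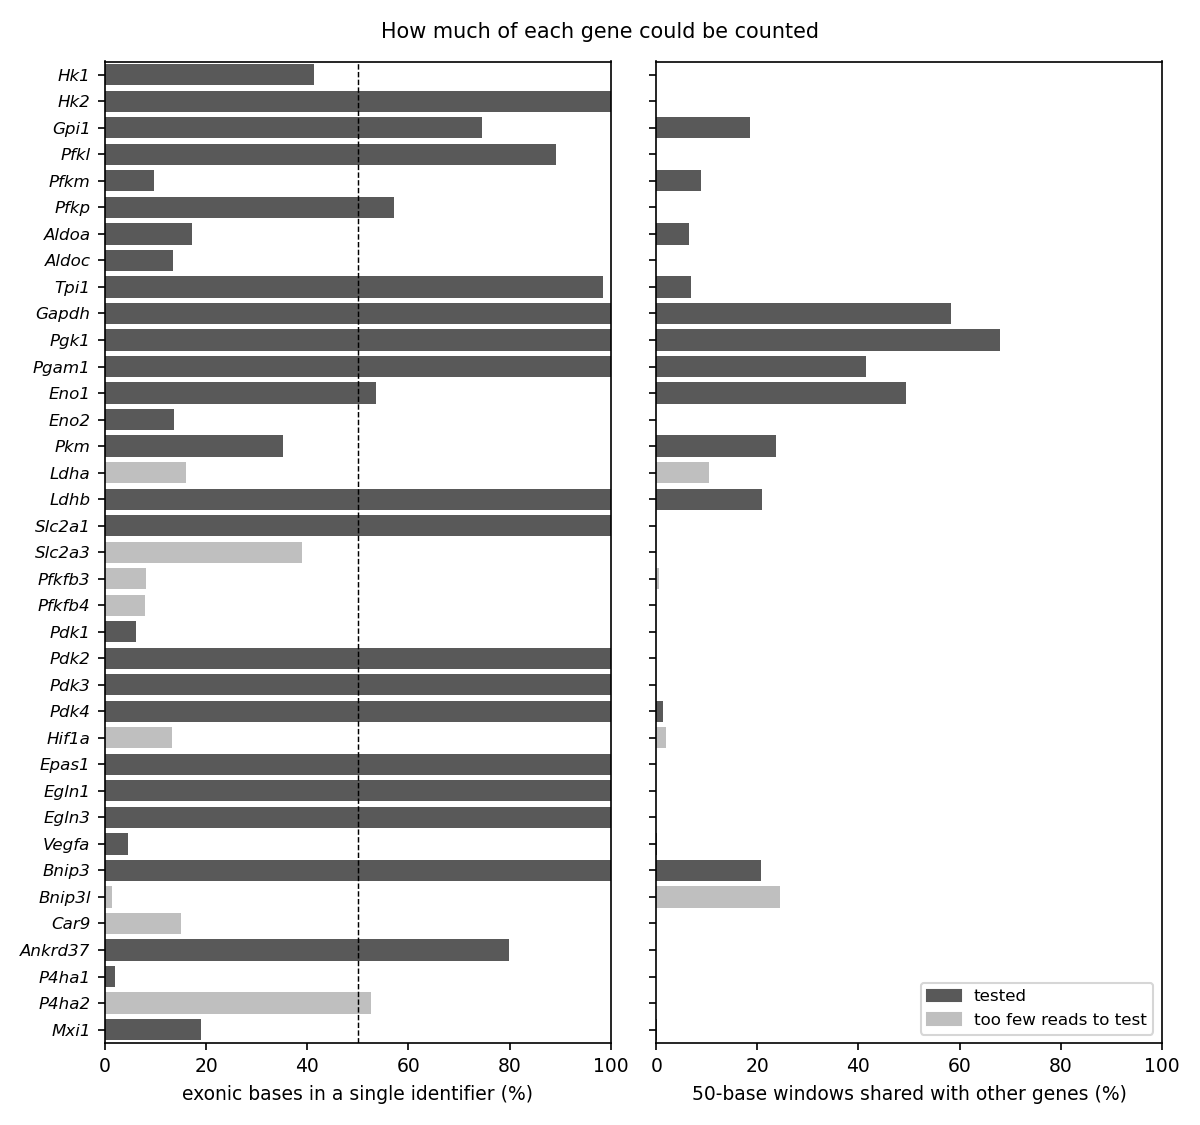
Countable share of each gene (left panel, % of exonic bases in a single identifier, dashed line at 50%) and share of its 50-base transcript windows found in other genes (right panel, %), for all 37 genes with untested ones in light grey. Epas1 and Pdk2 are fully countable with no shared window, whereas Pgk1, at 100% countable, shares 68% of its windows.

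Between the diets, 1 of the 29 tested genes was called at an adjusted p under 0.05 by edgeR's quasi-likelihood test with Benjamini-Hochberg adjustment over all 10519 genes. That gene was Epas1, higher on low NaCl, and 0 of the 29 were called lower. Over all tested genes 3.40% were called in either direction, with 1.70% called higher and 1.70% called lower. At an unadjusted p under 0.05 stood 5 of the 29, namely Epas1, Pfkp, Pdk2, Pgam1 and Hk2. The log2 fold changes, low-NaCl minus high-NaCl, had a median of 0.16 over the 29 genes, against −0.00 over all tested genes. Their median absolute size was 0.23, against 0.26 over all tested genes. Of the 29, 18 were above 0 and 11 below. The 3 values of each diet did not overlap in 8 of the 29, against 23.9% of all tested genes. In 7 of the 29 all low-NaCl values were above (Pfkm, Pfkp, Pgam1, Ldhb, Pdk3, Epas1 and Vegfa), against 12.3% of all tested genes. In 1 of the 29, Aldoc, all were below, against 11.6% of all tested genes.

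**Figure D2:**
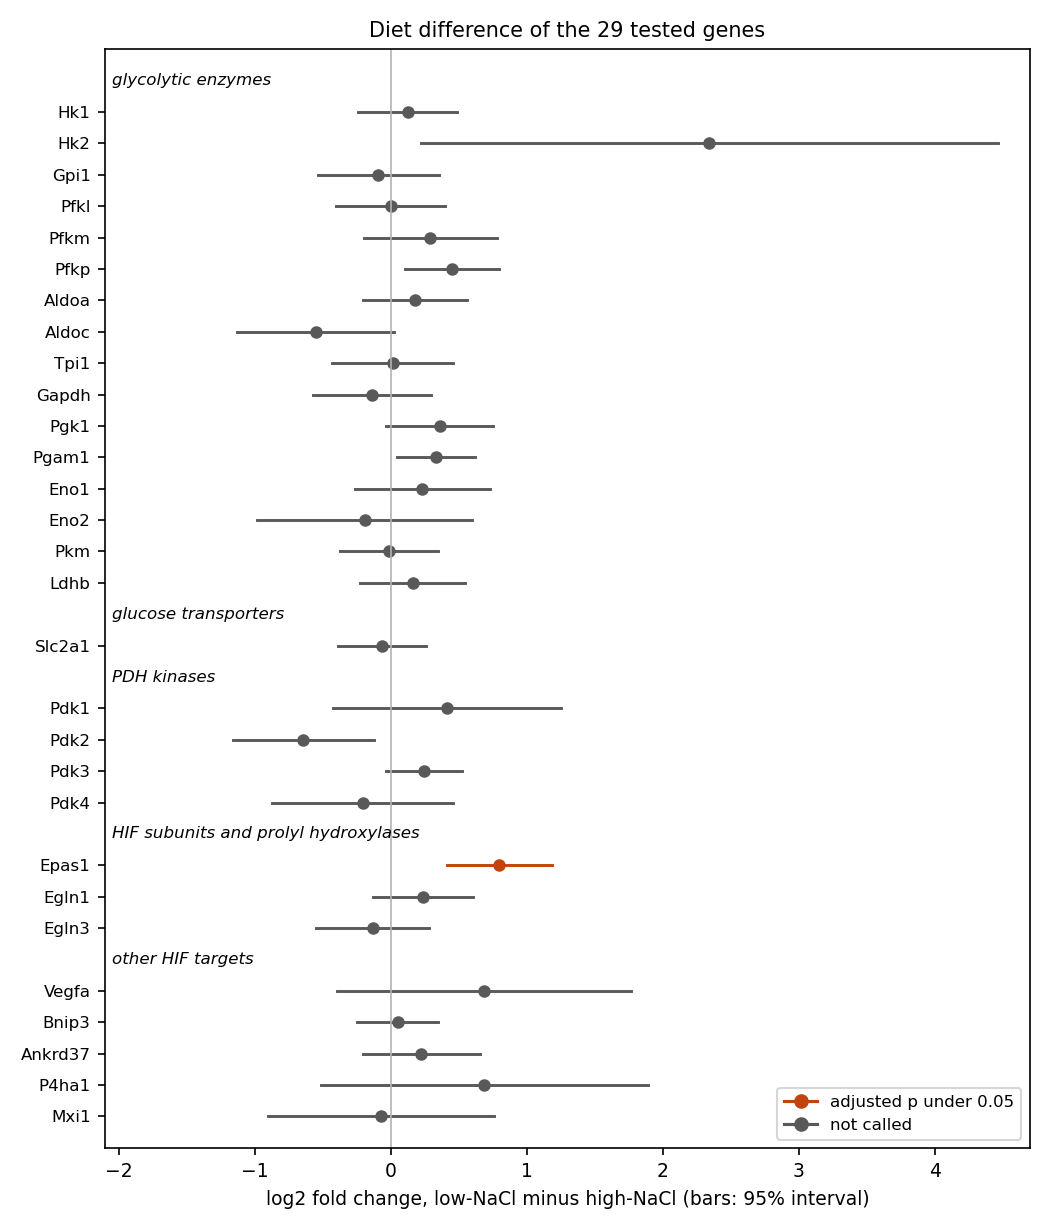
Log2 fold change (low-NaCl minus high-NaCl, points) with its 95% interval (bars) for the 29 tested genes, grouped by role; values above 0 mean higher on low NaCl. Only Epas1, at 0.80, is drawn as called, and Hk2 has the widest interval, 0.22 to 4.46.

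Levels spanned several orders of magnitude. Per kilobase of countable exon, the mean over the 6 libraries was highest for Ldhb at 4569 CPM per kilobase. This scaling allows for countable length but not for sequence shared with other genes, so the order of genes is approximate. Tpi1 followed at 1199, Gpi1 at 388, Slc2a1 at 331, Pdk2 at 279 and Pkm at 127 CPM per kilobase. Pfkl lay at 78.8, Bnip3 at 77.4, Egln1 at 38.8, Aldoa at 38.5, Pgam1 at 35.1 and Pdk3 at 34.3 CPM per kilobase. Pdk4 lay at 18.0, Egln3 at 10.7, Aldoc at 10.5 and Epas1 at 9.30 CPM per kilobase. Lactate dehydrogenase B, the isoform typical of oxidative tissues such as heart, was thus the most abundant of these transcripts as counted. Its paralog Ldha was only 15.9% countable and was not tested. All other values in CPM below are not divided by length and, apart from the floor of 3 reads, are scaled between libraries. Averages are given as mean ± SD over 3 libraries per diet.

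**Figure D3:**
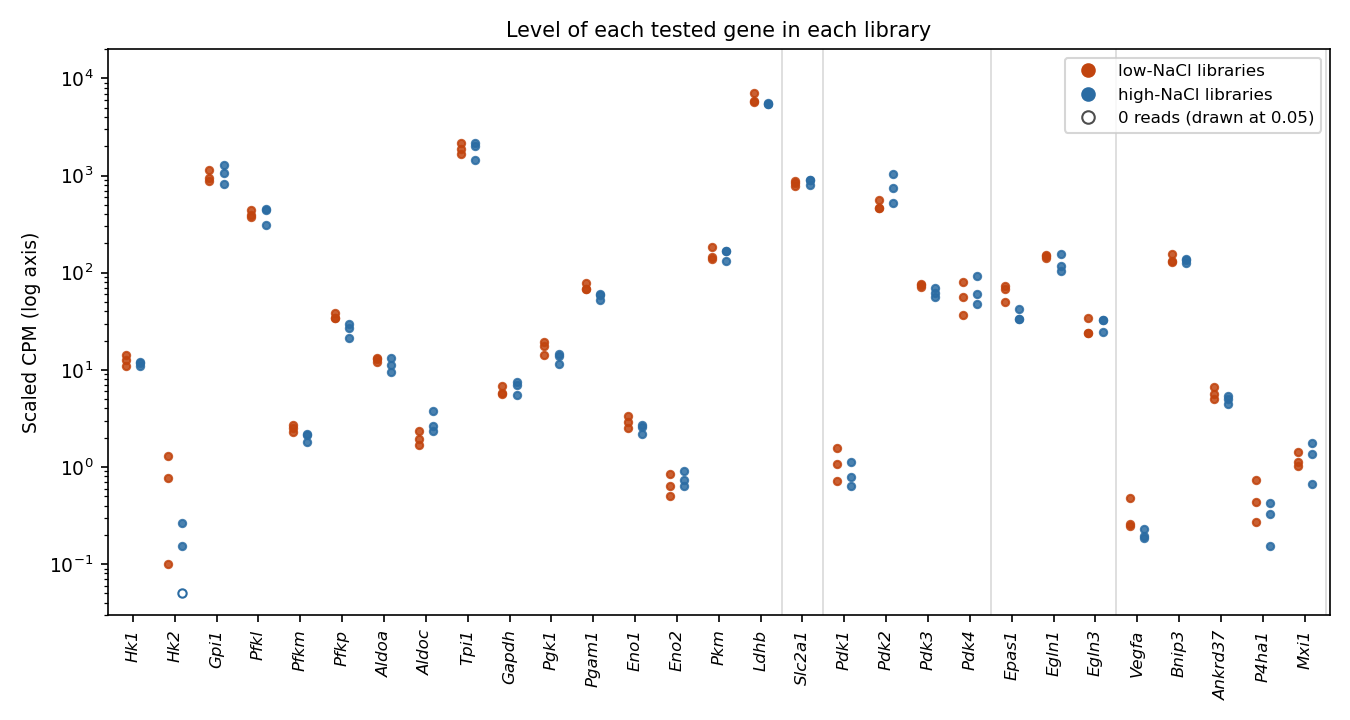
Scaled CPM (log axis) of each of the 29 tested genes in each library, low-NaCl points drawn left of high-NaCl points; open points mark 0 reads. Ldhb, at 5514 to 7101 CPM, lies highest, and for most genes the points of both diets cover the same range.

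Of the HIF subunits and hydroxylases, Epas1 rose on low NaCl, and the hydroxylases Egln1 and Egln3 were not called. Epas1 (ENSMUSG00000024140.10, chr17:86753700-86833410 in mm10, plus strand) encodes HIF-2 alpha, best known for driving erythropoietin and for its high level in endothelium. It measured 49.6, 72.3 and 67.8 CPM in the low-NaCl libraries and 33.5, 41.9 and 33.5 CPM in the high-NaCl libraries. Every low-NaCl value lay above every high-NaCl value, although the lowest low-NaCl library was closer to the high-NaCl range than to the other low-NaCl libraries. The means were 63.2 ± 12.0 CPM on low NaCl and 36.3 ± 4.86 CPM on high NaCl (SD, n = 3 each), a 1.74-fold rise. The log2 fold change was 0.80 ± 0.17 (SE), with a 95% interval of 0.42 to 1.18 and an adjusted p of 0.0372 (edgeR), from 1220 to 3175 reads per library.

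The rise of Epas1 kept its direction under every alternative run, with log2 fold changes of 0.56 to 0.94, but the call did not hold under all of them. Without low-NaCl library 2 the adjusted p was 0.163, without low-NaCl library 3 it was 0.128, without high-NaCl library 1 it was 0.109 and without high-NaCl library 3 it was 0.15 (edgeR), with log2 fold changes of 0.69, 0.75, 0.74 and 0.75. The adjusted p was also 0.408 with a lane term, which leaves the difference to the 1 pair of libraries on the shared lane, 0.11 with total-count scaling, 0.0889 with the total of non-mitochondrial counts, and 0.314 among the 4 libraries with at most 25% mitochondrial reads, of which 1 is high-NaCl. The log2 fold changes in these 4 settings were 0.56, 0.88, 0.78 and 0.58.

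**Figure D4:**
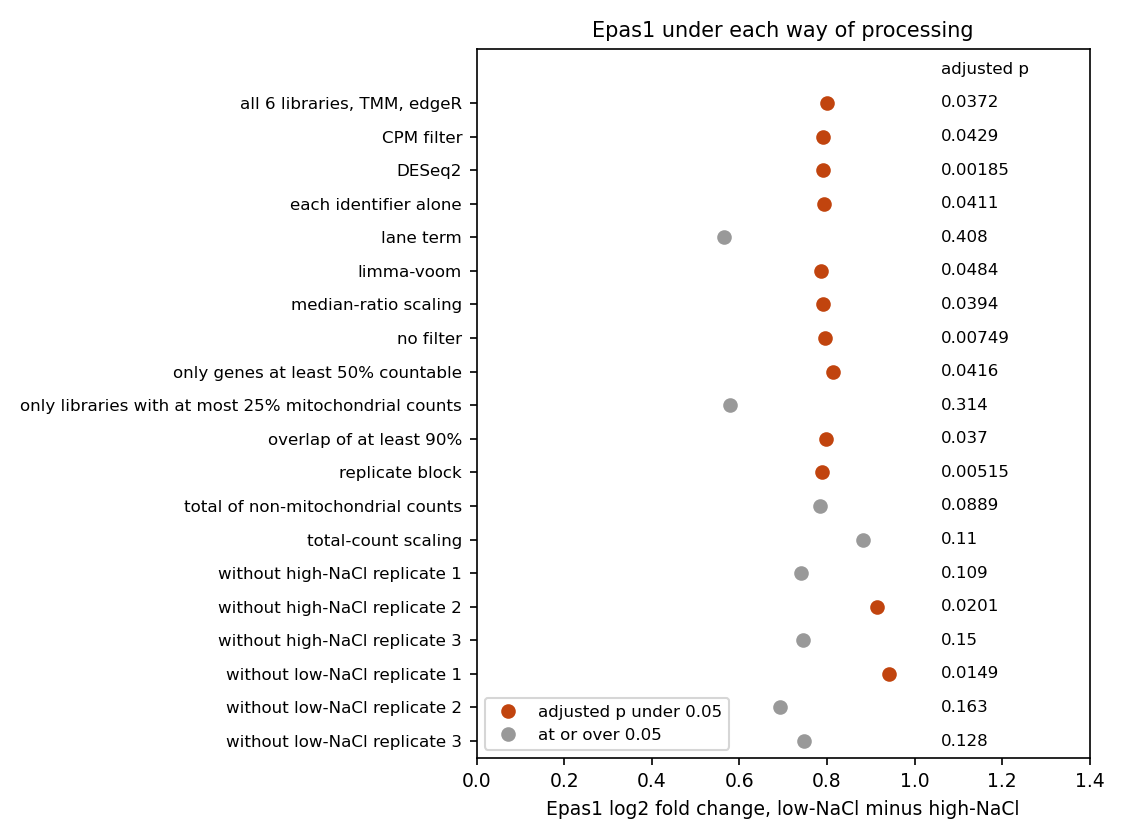
Epas1 log2 fold change (low-NaCl minus high-NaCl) under each way of processing, 1 point per setting, coloured by whether the adjusted p was under 0.05. All points lie between 0.56 and 0.94, and those at or over 0.05 include 4 of the 6 settings that leave out a library.

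Defining markers of endothelium, a tissue known for Epas1, were at or near 0 in these libraries. Cdh5, which encodes VE-cadherin, measured 0.621, 0.387 and 0 CPM on low NaCl and 1.04, 0.746 and 1.25 CPM on high NaCl. Kdr, which encodes a VEGF receptor, measured 0.0497, 0.751 and 0.0236 CPM on low NaCl and 0.687, 0.669 and 0.106 CPM on high NaCl. Emcn had 0 reads at a countable share of 65.9%, and Pecam1 had 0 reads with no countable base. Aqp1, found in endothelium but also in other cells, was abundant. It measured 3447, 1705 and 2632 CPM on low NaCl and 1537, 939 and 2170 CPM on high NaCl. Its diets overlapped, with a log2 fold change of 0.74 ± 0.33 (adjusted p = 0.264, edgeR). The part of endothelial RNA in the Epas1 values was not tested. In RNA of a mixed cell sample, fewer cells of a type and less RNA per cell cannot be told apart. Summed intercalated and principal cell markers differed between the diets as given above, though not every marker followed its sum.

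Egln1 encodes PHD2, the main oxygen sensor of the HIF pathway. It measured 143, 153 and 149 CPM in the low-NaCl libraries and 103, 156 and 118 CPM in the high-NaCl libraries. High-NaCl library 2 was above all low-NaCl libraries and the other two were below them, so the diets overlapped. Its log2 fold change was 0.24 ± 0.16, with an adjusted p of 0.495 (edgeR). Egln3 encodes PHD3, a hydroxylase that is itself strongly induced by HIF. It measured 23.7, 34.0 and 24.1 CPM on low NaCl and 24.4, 32.9 and 32.3 CPM on high NaCl, with overlapping diets and a log2 fold change of −0.13 ± 0.19 (adjusted p = 0.757, edgeR). Hif1a, the gene for HIF-1 alpha, could not be tested. Its reads numbered 5, 7 and 13 in the low-NaCl libraries and 2, 3 and 15 in the high-NaCl libraries. Only 13.2% of its exonic bases were countable, so this says little about its level, and the planned ratio of Epas1 to Hif1a was not computed.

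Of the 8 other HIF targets, 5 were tested and 0 were called in either direction, with a median log2 fold change of 0.23. Vegfa, the gene for the main angiogenic growth factor, measured 0.248, 0.478 and 0.259 CPM on low NaCl and 0.192, 0.230 and 0.186 CPM on high NaCl. All low-NaCl values were above all high-NaCl values, at low read numbers and with 4.46% of bases countable. On the log2 scale the difference was 0.68 ± 0.48, with an interval of −0.40 to 1.77 and an adjusted p of 0.504 (edgeR). P4ha1, which encodes a collagen prolyl hydroxylase subunit, measured 0.273, 0.433 and 0.731 CPM on low NaCl and 0.330, 0.153 and 0.426 CPM on high NaCl. The diets overlapped, 1.99% of its bases were countable, and the log2 fold change was 0.69 ± 0.54 (adjusted p = 0.550, edgeR). Ankrd37, a small ankyrin-repeat gene induced by HIF-1, measured 5.04, 6.72 and 5.66 CPM on low NaCl and 4.45, 5.37 and 5.05 CPM on high NaCl. Its ranges overlapped by the lowest low-NaCl library, with a log2 fold change of 0.23 ± 0.19 (adjusted p = 0.585, edgeR).

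Bnip3 encodes a mitochondrial protein that promotes mitophagy and was the most abundant of these targets as counted. It averaged 138 ± 14.2 CPM on low NaCl and 134 ± 7.06 CPM on high NaCl (SD, n = 3 each). Its log2 fold change was 0.05, with a narrow interval of −0.24 to 0.35. Mxi1, which encodes an antagonist of MYC, averaged 1.19 ± 0.219 CPM on low NaCl and 1.26 ± 0.551 CPM on high NaCl, with 18.9% of bases countable. Bnip3l, Car9 and P4ha2 had too few reads to test. Car9, a membrane carbonic anhydrase and a classic HIF-1 target, had 4, 1 and 0 reads on low NaCl and 1, 3 and 0 reads on high NaCl at a countable share of 15.0%. P4ha2, at 52.6% countable, had 3, 3 and 7 reads on low NaCl and 0, 2 and 4 reads on high NaCl. Bnip3l, at 1.28% countable, had 0, 1 and 0 reads on low NaCl and 2, 0 and 0 reads on high NaCl.

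The glucose transporter Slc2a1, which encodes GLUT1, the transporter of basal glucose uptake in most cells, was among the most abundant of these genes and was not called. It measured 877, 839 and 785 CPM in the low-NaCl libraries and 902, 809 and 901 CPM in the high-NaCl libraries. The diets overlapped, with a log2 fold change of −0.06 ± 0.14 and an interval of −0.39 to 0.26 (adjusted p = 0.859, edgeR). Every exonic base of Slc2a1 was countable and none of its windows was shared. Slc2a3, which encodes GLUT3, had 0 reads in every library at a countable share of 39.0%. A count of 0 allows up to 0.064 to 0.0748 CPM per library, the level of 3 reads, for the countable bases alone. This floor is relative to total counts, without scaling between libraries.

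Of the 17 glycolytic enzymes, 16 were tested and 0 were called, with a median log2 fold change of 0.14. For 4 of the 16 (Pfkm, Pfkp, Pgam1 and Ldhb) all low-NaCl values lay above all high-NaCl values, and for Aldoc they all lay below. Over all tested genes the shares were 12.3% above and 11.6% below. The hexokinases Hk1 and Hk2 trap glucose by phosphorylating it. Hk2, the inducible isoform and a HIF target, measured 0.0994, 1.30 and 0.778 CPM in the low-NaCl libraries and 0, 0.153 and 0.266 CPM in the high-NaCl libraries. The first low-NaCl library lay within the high-NaCl range and the other two above it. Its log2 fold change was 2.34 ± 0.95 with an interval of 0.22 to 4.46, and the adjusted p was 0.226 (edgeR), from 112 reads in all. Hk1, the ubiquitous isoform, averaged 12.6 ± 1.69 CPM on low NaCl and 11.6 ± 0.506 CPM on high NaCl at a countable share of 41.4%. The ratio of Hk2 to Hk1 within a library was 0.00905, 0.0903 and 0.0618 on low NaCl and 0, 0.0139 and 0.0226 on high NaCl. The log2 ratio differed by 2.54, with a 2-sided exact permutation p of 0.3, or 0.75 adjusted over 5 planned ratios, where 3 against 3 libraries cannot go below 0.1. For this, 0.01 CPM was added to each gene, and Hk2 had 0 reads in high-NaCl library 1. With 0.5 CPM added instead, the log2 ratio differed by 0.71. Leaving out 1 library gave differences from 1.05 (without high-NaCl library 1) to 3.51 (without low-NaCl library 1).

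Gpi1, the isomerase that turns glucose 6-phosphate into fructose 6-phosphate, averaged 991 ± 142 CPM on low NaCl and 1054 ± 234 CPM on high NaCl. The 3 phosphofructokinase genes encode the first committed step. Pfkp (ENSMUSG00000021196.14, chr13:6579768-6648777, minus strand), the platelet-type subunit, measured 34.1, 38.4 and 33.9 CPM in the low-NaCl libraries and 21.2, 27.1 and 29.7 CPM in the high-NaCl libraries. The groups did not overlap, the means being 35.5 ± 2.56 CPM on low NaCl and 26.0 ± 4.38 CPM on high NaCl (SD, n = 3 each). The log2 fold change was 0.45 ± 0.15 with an interval of 0.10 to 0.80, and it missed the threshold with an adjusted p of 0.156 (edgeR). On the shared lane the difference was 0.69. Pfkl, the liver-type and most abundant subunit as counted, averaged 402 ± 35.5 CPM on low NaCl and 402 ± 81.0 CPM on high NaCl, with an interval of −0.40 to 0.40 on the log2 scale. Pfkm, the muscle type, averaged 2.50 ± 0.213 CPM on low NaCl and 2.05 ± 0.200 CPM on high NaCl, with 9.64% of bases countable and a log2 fold change of 0.29 ± 0.22.

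Aldolase splits fructose 1,6-bisphosphate into triose phosphates. Aldoc, the isoform best known from brain, measured 1.66, 2.35 and 1.96 CPM on low NaCl and 2.36, 2.66 and 3.75 CPM on high NaCl. The ranges were separated only by the gap between 2.35 and 2.36 CPM. Its log2 fold change was −0.55 ± 0.26, with an interval of −1.13 to 0.03 and an adjusted p of 0.297 (edgeR), at a countable share of 13.5%. Aldoa, the ubiquitous isoform, averaged 12.8 ± 0.672 CPM on low NaCl and 11.3 ± 1.90 CPM on high NaCl, at a countable share of 17.2%. The ratio of Aldoc to Aldoa was 0.125, 0.195 and 0.151 in the low-NaCl libraries and 0.178, 0.281 and 0.334 in the high-NaCl libraries. The log2 ratio differed by −0.73, low-NaCl minus high-NaCl, with an exact permutation p of 0.2, or 0.75 adjusted over the 5 planned ratios. Tpi1, which interconverts the triose phosphates, averaged 1901 ± 238 CPM on low NaCl and 1883 ± 392 CPM on high NaCl.

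The later enzymes include those that yield the ATP of the pathway. Pgam1 (ENSMUSG00000011752.7, chr19:41911923-41918660, plus strand), a phosphoglycerate mutase, measured 78.8, 68.1 and 68.2 CPM in the low-NaCl libraries and 59.1, 52.0 and 59.9 CPM in the high-NaCl libraries. The groups did not overlap. Pgam1 had a log2 fold change of 0.33 ± 0.13 with an interval of 0.04 to 0.62, and the adjusted p was 0.205 (edgeR). Pgk1, the first ATP-yielding enzyme, averaged 17.0 ± 2.71 CPM on low NaCl and 13.3 ± 1.64 CPM on high NaCl (log2 fold change 0.36 ± 0.18, adjusted p = 0.318, edgeR). Gapdh, which precedes it, averaged 6.06 ± 0.658 CPM on low NaCl and 6.65 ± 1.04 CPM on high NaCl. Other genes share 68% of the windows of Pgk1, 58.4% of those of Gapdh, 49.5% of those of Eno1 and 41.5% of those of Pgam1. The levels of these genes may be low for that reason, which was not tested. The enolases Eno1 and Eno2 averaged 2.92 ± 0.434 and 0.661 ± 0.177 CPM on low NaCl and 2.48 ± 0.267 and 0.757 ± 0.137 CPM on high NaCl, Eno2 at a countable share of 13.6%. Pkm, the pyruvate kinase of most tissues outside liver, averaged 155 ± 24.0 CPM on low NaCl and 157 ± 20.7 CPM on high NaCl, with 35.1% of bases countable.

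Lactate dehydrogenase interconverts pyruvate and lactate. Ldhb measured 7101, 5712 and 5871 CPM in the low-NaCl libraries and 5639, 5526 and 5514 CPM in the high-NaCl libraries. The lowest low-NaCl value was above the highest high-NaCl value by less than the spread among low-NaCl libraries. On the log2 scale Ldhb differed by 0.16 ± 0.17, with an interval of −0.22 to 0.55 and an adjusted p of 0.670 (edgeR). Ldha, the HIF-induced isoform that favours lactate formation, had 1, 6 and 5 reads on low NaCl and 0, 9 and 5 reads on high NaCl. It was 15.9% countable and was not tested, and the planned ratio of Ldha to Ldhb was therefore not computed. Pfkfb3 and Pfkfb4 make the bifunctional enzymes that set fructose 2,6-bisphosphate, an activator of phosphofructokinase, and both were too low to test. Pfkfb3 had 0, 0 and 0 reads on low NaCl and 0, 4 and 1 reads on high NaCl at a countable share of 8.04%. Pfkfb4 had 0, 1 and 0 reads on low NaCl and 0, 0 and 3 reads on high NaCl at 7.84%, so their ratio was not computed either.

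Of the 4 PDH kinases, all 4 were tested and 0 were called. Pdk2 (ENSMUSG00000038967.13, chr11:95026258-95041354, minus strand), the most widely expressed kinase of the family, measured 556, 459 and 464 CPM in the low-NaCl libraries and 1032, 527 and 754 CPM in the high-NaCl libraries. High-NaCl library 2 lay below low-NaCl library 1, so the diets overlapped, while high-NaCl libraries 1 and 3 were above all others. The means were 493 ± 54.3 CPM on low NaCl and 771 ± 253 CPM on high NaCl (SD, n = 3 each). The log2 fold change was −0.64 ± 0.23, with an interval of −1.16 to −0.13 and an adjusted p of 0.174 (edgeR). High-NaCl libraries 1 and 3 also had the highest mitochondrial shares, 29.9% and 28.7%. Among the 4 libraries with at most 25% mitochondrial reads the log2 fold change was −0.11. That limit was chosen after seeing the data. It leaves high-NaCl library 2, the lowest of its diet for Pdk2, alone on its side, so a smaller difference was bound to follow. The part of mitochondrial share in the Pdk2 values was not tested. Without high-NaCl library 2 the log2 fold change was −0.86 and called, with an adjusted p of 0.0292 (edgeR).

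**Figure D5:**
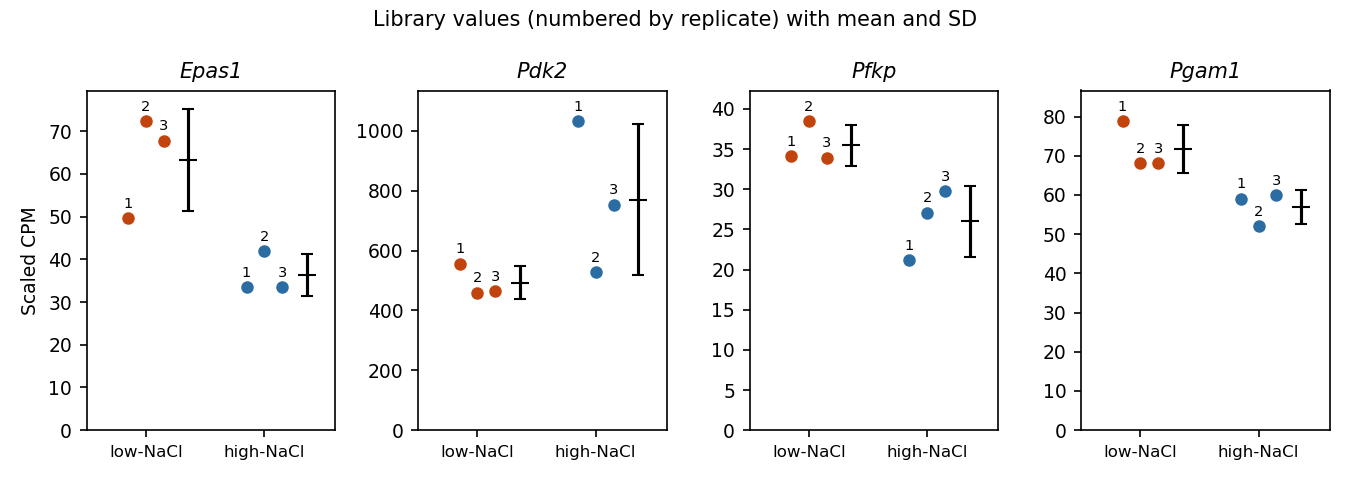
Scaled CPM of Epas1 and 3 further genes in each library, low-NaCl left of high-NaCl, points numbered by replicate, with mean and SD. Epas1 values do not overlap between diets, whereas Pdk2 in high-NaCl library 2, at 527 CPM, lies within the low-NaCl range of 459 to 556 CPM.

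Pdk3 measured 74.6, 77.4 and 71.5 CPM in the low-NaCl libraries and 56.7, 69.4 and 62.4 CPM in the high-NaCl libraries. All low-NaCl values were above all high-NaCl values, and the log2 fold change of 0.25 ± 0.13 had an adjusted p of 0.346 (edgeR). Pdk1, the kinase best known as a HIF-1 target, measured 0.720, 1.57 and 1.08 CPM on low NaCl and 0.632, 0.784 and 1.12 CPM on high NaCl. Its diets overlapped, at a countable share of 6.12%, with a log2 fold change of 0.42 ± 0.37 (adjusted p = 0.607, edgeR). Pdk4, which rises in fasting in several tissues, averaged 57.7 ± 21.9 CPM on low NaCl and 66.5 ± 22.8 CPM on high NaCl. Its spread among libraries of the same diet, 36.4 to 80.1 CPM on low NaCl and 47.6 to 91.8 CPM on high NaCl, exceeded the difference between the means.

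Other genes of the same pathways, in lists that do not overlap with the 37, gave 3 calls, each lower on low NaCl. The numbers tested are given list by list below. Over all tested genes 3.40% were called, 1.70% higher and 1.70% lower. So few calls give no direction for the pathways as a whole. Among 18 other glycolysis isoforms and regulators 9 were tested and 0 called. The smallest p there were those of Pgam2, the muscle phosphoglycerate mutase, and Hkdc1, a hexokinase-like gene. Pgam2 measured 366, 258 and 353 CPM on low NaCl and 680.4, 549.6 and 457 CPM on high NaCl, with a log2 fold change of −0.79 ± 0.20 and an adjusted p of 0.0642 (edgeR). Pgam2 thus stood higher in every high-NaCl library than in any low-NaCl library, while its paralog Pgam1 stood higher in every low-NaCl library. For Hkdc1 the log2 difference was 0.79 ± 0.26 (adjusted p = 0.137, edgeR). Of 14 genes of pyruvate and lactate handling, 10 were tested and 0 called, with a median log2 fold change of 0.19. In 5 of the 10 all low-NaCl values were above all high-NaCl values, against 12.3% of all tested genes. The pyruvate dehydrogenase component Pdhx averaged 86.5 ± 5.96 CPM on low NaCl and 64.7 ± 2.94 CPM on high NaCl (adjusted p = 0.0975, edgeR). Dlat, another component of the same complex, averaged 299 ± 23.1 CPM on low NaCl and 228 ± 19.4 CPM on high NaCl (adjusted p = 0.173, edgeR).

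Of 7 gluconeogenesis genes 5 were tested, and 1 fell. Pck2, the mitochondrial phosphoenolpyruvate carboxykinase, measured 6.51, 5.47 and 7.17 CPM on low NaCl and 15.9, 12.4 and 11.0 CPM on high NaCl, with every low-NaCl value below every high-NaCl value. Its log2 fold change was −1.04 ± 0.20, or 2.05-fold lower, with an adjusted p of 0.0262 (edgeR), at a countable share of 27.5%. The call was lost without low-NaCl library 2 (adjusted p = 0.117), low-NaCl library 3 (0.056), high-NaCl library 1 (0.0683) or high-NaCl library 3 (0.0614). It was also lost with a lane term (0.24), with total-count scaling (0.0623) and among the 4 libraries with at most 25% mitochondrial reads (0.112). For Slc37a4, the glucose 6-phosphate transporter, the log2 difference was −0.72 ± 0.26 (adjusted p = 0.183, edgeR). All 7 pentose phosphate genes were tested and 0 were called. Rpia and Pgls had the smallest p among them, with log2 fold changes of 0.23 ± 0.19 and −0.24 ± 0.25.

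Of 11 other regulators of the HIF pathway 6 were tested, and 1 fell. Cited2, which encodes a HIF-induced protein that competes with HIF alpha for the coactivators CBP and p300, measured 4.27, 3.46 and 3.47 CPM on low NaCl and 5.85, 8.42 and 8.94 CPM on high NaCl. The groups did not overlap, and the log2 fold change was −1.05 ± 0.22, or 2.07-fold lower, with an adjusted p of 0.0342 (edgeR) at a countable share of 15.1%. Without low-NaCl library 2, low-NaCl library 3 or high-NaCl library 3 the adjusted p was 0.153, 0.121 and 0.135. The call was also lost with total-count scaling (0.101), among the 4 libraries with at most 25% mitochondrial reads (0.0714) and with a lane term, where the log2 fold change was −0.45 and the adjusted p 0.588. Hif1an, the asparaginyl hydroxylase that blocks that coactivator contact, averaged 121 ± 7.27 CPM on low NaCl and 95.7 ± 14.1 CPM on high NaCl (adjusted p = 0.248, edgeR).

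Of 29 further HIF targets 21 were tested, 1 fell and 0 rose, with a median log2 fold change of 0.25. Ndrg1, a stress-responsive gene induced by hypoxia in many cell types, measured 779, 793 and 618 CPM in the low-NaCl libraries and 2154, 2233 and 1919.6 CPM in the high-NaCl libraries. The highest low-NaCl value, 793 CPM, was under the lowest high-NaCl value, 1919.6 CPM. The log2 fold change was −1.53 ± 0.17, or 2.88-fold lower, with an adjusted p of 0.00503 (edgeR) at a countable share of 82.2%. The call held in each fit without 1 library. Among the 4 libraries with at most 25% mitochondrial reads, where the high-NaCl side is library 2 alone and is assumed to vary like the others, the log2 fold change was −1.63. It was lost with a lane term, at a log2 fold change of −1.47 and an adjusted p of 0.2. Ero1l, an endoplasmic reticulum oxidase, differed by 0.46 ± 0.14 on the log2 scale (adjusted p = 0.115, edgeR). Of the called genes tied to HIF, Epas1 was thus higher on low NaCl, and Ndrg1 and Cited2 were lower.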

How the data were processed

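Collecting duct cell RNA from mice was sequenced in 6 libraries, 3 for each diet. The authors deposited raw counts of reads per UCSC transcript identifier of build mm10. Counting was done by the authors over exons with featureCounts 1.5.0-p3, per the file headers, with no option for strand or overlap, so antisense genes that overlap share or lose reads whatever their strand. FastQC, Subread and edgeR are further tools in the submitters' processing notes, and the aligner is not given in the sources used here. Lane numbers were read from the file headers.

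The members and lists were chosen with earlier results of these data known. Of 59121 identifiers, 52383 (94.35% of counts) matched a gene of GENCODE release M21 on the same strand by at least 50% of exonic bases and were summed to 24825 genes in Python 3.11.15. The other 6738 (5.65% of counts) entered library sizes only. The fit used R 4.3.3 with edgeR 4.0.16, with total counts as library sizes, TMM factors, filterByExpr by diet, robust glmQLFit and glmQLFTest without covariates. Benjamini-Hochberg adjustment ran over 10519 genes at a threshold of 0.05, and the biological coefficient of variation was 21.6%. Apart from the floors of 3 counts, CPM values were divided by TMM-scaled library sizes. Ratios were taken as log2 of CPM plus 0.01 in a 2-sided exact permutation test. Promoters came from RefSeq (GRCm38.p6).

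All 37 members were accounted for. Values of every library were given for called members and for the 3 of smallest p in each role, and genes outside the members were named as the 2 of smallest p in each list. Alternatives planned were DESeq2 1.42.0, voom from limma 3.58.1, scaling by total counts or by median ratios, keeping all genes with a read or only those with 1 CPM or more in 3 or more libraries, a lane term, a replicate block, an overlap of at least 90%, each identifier alone, a pseudocount of 0.5 CPM and leaving out each library. Chosen after seeing the data were only genes at least 50% countable, only libraries with at most 25% mitochondrial counts, and the total of non-mitochondrial counts. The procedure was tested on simulated counts. Within diets, library pairs gave 39.1 to 253 for chi-square over its degrees of freedom, far above sampling noise, so all were kept. Floors of 3 counts cover counting error only.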

Additional observations from a re-analysis of the deposited data

How the results depend on the processing

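Calls were recomputed under 19 alternatives. Of all tested genes, 179 were called higher and 179 lower on low NaCl. The counts were 403 and 442 with DESeq2, 1 and 2 with a lane term, 30 and 90 among libraries with at most 25% mitochondrial counts, and 80 and 55 with total-count scaling. With the total of non-mitochondrial counts 105 were higher, and with no filter 274 were lower. Leaving out 1 library gave 32 to 287 higher and 36 to 252 lower. Of the 29 tested glycolysis and HIF genes, 1 was called higher and 0 lower. With a lane term, at most 25% mitochondrial counts, total-count scaling or the total of non-mitochondrial counts, 0 were called higher. Leaving out 1 library gave 0 to 1 higher and 0 to 1 lower. The cause was not tested.

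Whether the replicate numbers pair the libraries could not be settled from so few correlations. The correlations of deviations for libraries of the same number were 0.193, 0.272 and −0.0743. For libraries of unlike number they ran from −0.285 to 0.102, so numbers 1 and 2 correlated best with their own number. Low-NaCl library 3 correlated best with high-NaCl library 2 (0.102). With the replicate block 461 genes were higher and 440 lower, and of the 29 genes 2 were higher (Epas1, and Hk2 with an adjusted p of 0.0418) and 1 lower (Pdk2, 0.0362, edgeR).

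The genes named here that changed sign were uncalled in every such setting. With a lane term the log2 fold change was −0.13 for Hk1, −0.030 for Tpi1, −0.027 for Eno1, 0.11 for Pkm, 0.25 for Pdk4, −0.27 for P4ha1 and −0.10 for Hkdc1. Among libraries with at most 25% mitochondrial counts it was 0.26 for Gpi1, 0.37 for Pfkl, 0.21 for Pkm, 0.028 for Slc2a1, −0.087 for Egln1, −0.020 for Bnip3, 0.81 for Mxi1, −0.15 for Rpia and 0.33 for Pgls. With total-count scaling, which moved the median of all genes to 0.09, it was 0.018 for Gpi1, 0.11 for Pfkl, 0.082 for Pkm, 0.032 for Slc2a1 and 0.068 for Mxi1. Pfkl reached 0.0138 with limma-voom, 0.0136 among genes at least 50% countable and 0.017 with the replicate block, and Mxi1 0.075 with limma-voom and 0.021 for its identifier alone. Leaving out 1 library gave −0.24 to 0.076 for Gpi1, −0.16 to 0.092 for Pfkl, −0.15 to 0.13 for Tpi1, −0.15 to 0.066 for Pkm, −0.52 to 0.10 for Pdk4, −0.033 to 0.10 for Bnip3, −0.39 to 0.25 for Mxi1 and −0.47 to 0.0099 for Pgls. Over all settings 682 values kept their direction and side of the threshold, 22 lost and 12 gained a call, and 43 changed sign. Where under 50% of a gene is countable or reads are below about 30 in all, depth limits what can be seen.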
